A study of Mus musculus with 6 samples.

Results

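The genes described here are 50 nucleolar ribosome biogenesis factors of the mouse, the proteins that transcribe, modify, cut and fold ribosomal RNA (rRNA) and assemble it into subunits. They were chosen by name, with earlier results of these data known. Their probes were found on the arrays through the transcript accession given for each probe, and all 50 genes had at least 1 probe, 64 probes in all. They were 50 of 25439 genes and genomic intervals tested. Both groups were J1 mouse embryonic stem cells, a line from the inner cell mass of the strain 129S4/SvJae, adapted to gelatin and grown in Knockout Serum Replacement medium with 1000 U/mL of leukemia inhibitory factor. One group received 1 µM SC1 for 6 h (3 samples) and the other received the solvent DMSO (3 samples). SC1, or pluripotin, is a small molecule known as an inhibitor of ERK1 and of RasGAP. The study asked which RNAs SC1 changes in these cells, and total RNA of each sample was labelled with Cy3 and hybridised to its own single-colour Agilent array.

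Ribosomes are built in the nucleolus. RNA polymerase I transcribes a long precursor from the rDNA repeats, and small nucleolar ribonucleoproteins (snoRNPs) guide the methylation and pseudouridylation of that precursor. Box C/D snoRNPs place the methyl groups and box H/ACA snoRNPs the pseudouridines, after which separate branches of assembly factors, with RNA helicases, GTPases and scaffold proteins among them, give the small and the large subunit. Embryonic stem cells have large nucleoli and make ribosomes at a high rate, and MYC is a well-known activator of these genes.

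All 6 arrays came from 1 slide and 1 scan. Between 63.2% and 65.1% of the probes were well above background on the SC1 arrays and between 65.0% and 65.6% on the DMSO arrays, and no spot was saturated. The array's 75th percentile of signal was 443.3 to 493.3 with SC1 and 532.2 to 539.0 with DMSO, so each array was scaled to a common 75th percentile of 499, and all signals below are on that scale. Signal compares a probe with itself across arrays and does not rank genes by abundance. All 10 embryonic stem cell markers looked at were above background on every array, with a summed signal of 342921 to 363417 with SC1 and 342283 to 354377 with DMSO. That sum is mostly Dppa5a, and single markers moved: Fgf4 (log2 fold change 0.89) and Klf4 (0.21) were higher, while Utf1 (-2.36), Tdgf1 (-1.39), Sox2 (-0.28) and Zfp42 (-0.25) were lower. Of 8 fibroblast markers, Lum, Postn and Twist2 were above background on no array, and the summed signal of all 8 was 839 to 897 with SC1 and 1097 to 1177 with DMSO. Of the other 5, Thy1 alone was lower (-1.09), Dcn (1.18), Col1a1 (0.81) and Col3a1 (0.50) were higher, and Col1a2 did not pass. The 6 markers of extraembryonic endoderm summed to 410 to 460 with SC1 and 398 to 430 with DMSO. Of those tested, Foxa2 (0.66) and Gata4 (0.18) were higher, while Gata6 (-0.21), Sox17 (-0.05) and Sox7 (-0.01) did not pass. The 4 trophoblast markers summed to 48 to 56 with SC1 and 50 to 70 with DMSO, and of these Elf5 and Hand1 were above background on no array. Cdx2 was lower (-1.49), with signals above background on 3 DMSO arrays and 0 SC1 arrays. Whether other cell types had a part in the results was not tested. In bulk RNA, fewer cells of a type and less RNA per cell cannot be told apart. The labels do not say whether replicates were grown apart, so a p-value reflects the spread between 3 and 3 samples that may be technical repeats, and so small a number limits the precision.

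After 6 h of SC1, 30 of the 50 factors were lower, 2 were higher (Polr1b and Lyar) and 18 did not pass (limma, Benjamini-Hochberg adjusted p under 0.05 over all genes tested). The share lower was 60% among the factors, against 20.2% of all genes and intervals and 24.0% of protein-coding genes. The share higher was 4.0%, against 18.1% of all genes and intervals. The median log2 fold change, SC1 over DMSO, was -0.22 for the 50 factors and -0.01 for all genes tested, and single factors ran from -0.65 (Wdr43) to 0.27 (Lyar). Of the 50 factors 43 had a value below 0 (86.0%, against 51.0% of all genes and intervals). The shifts were small: no factor fell more than 1.57-fold, and 21 of the 50 (42.0%) fell at least 1.25-fold, against 11.7% of all genes and intervals. The 3 SC1 arrays lay wholly below the 3 DMSO arrays for 38 factors (76.0%, against 27.6% of all genes and intervals) and wholly above them for 3 (6.0%, against 24.6%).

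**Figure D1:**
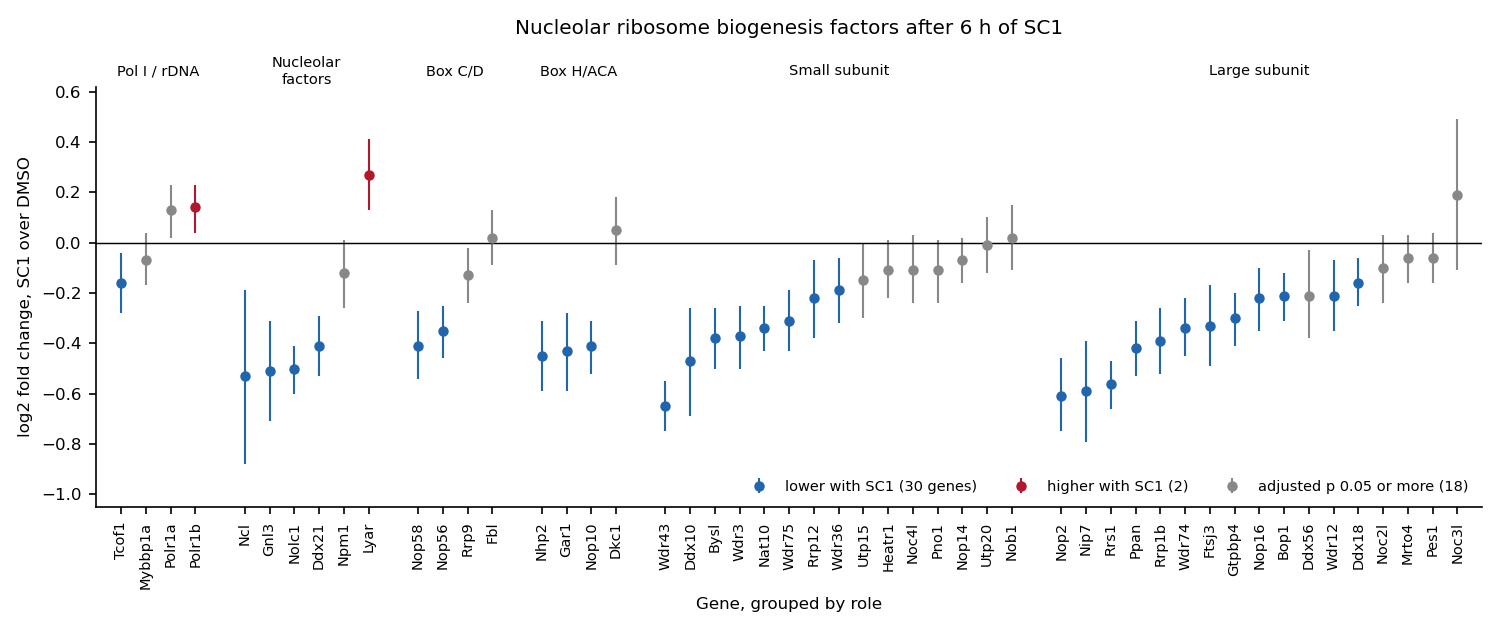
Log2 fold change, SC1 over DMSO (vertical axis), of each of the 50 factors, grouped by role along the horizontal axis. Points are limma estimates from 3 SC1 and 3 DMSO arrays, bars are 95% confidence intervals, and colour gives the call: 30 lower, 2 higher, 18 with an adjusted p of 0.05 or more. Values lie between -0.65 and 0.27, most of them below 0.

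The shift was of like size on each SC1 array. Set against the mean of the DMSO arrays, the median log2 value of the factors was -0.24 on SC1 replicate 1, -0.25 on SC1 replicate 2 and -0.26 on SC1 replicate 3, and 42, 44 and 44 of the 50 factors were below that mean. The DMSO arrays themselves had medians of 0.00, -0.02 and 0.02. The SD between replicate arrays of a factor was small next to most of these shifts, with a median of 0.0386 (log2) with SC1 and 0.0474 with DMSO. Ncl was the most variable with SC1 (0.257) and Noc3l with DMSO (0.248).

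**Figure D2:**
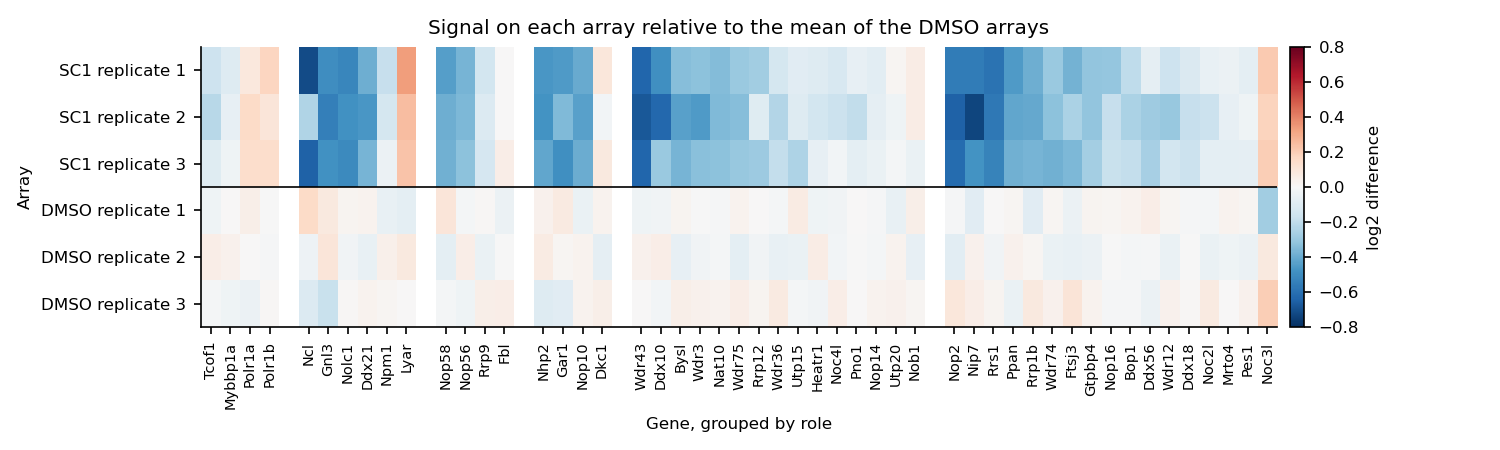
Log2 difference (colour) between the signal on each array (rows, SC1 above DMSO) and the mean of the DMSO arrays, for the 50 factors in columns grouped by role. The 3 SC1 rows are mostly blue, with medians from -0.26 to -0.24, and the 3 DMSO rows are near 0, with a visible departure of Noc3l on DMSO replicate 1.

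How many factors were called depended on the arrays and the scaling. When the position on the slide (its column) was taken as a block, which leaves SC1 replicate 1 against the DMSO arrays because SC1 replicates 2 and 3 shared the other column with no control, 20 factors were lower (40%) and 1 was higher, with 11.2% of all genes and intervals lower. With scaling to 8 spike-in probes, 16 were lower (32.0%) and none higher, with 10.9% of all genes and intervals lower. The median of the factors was -0.24 in the first case and -0.26 in the second. All 30 lower factors kept their sign under all 18 alternatives tried, and 13 of them also kept their call under all 18. When each array was left out in turn, 23 of the 30 were called every time. The exceptions were Tcof1, Ncl, Rrp12, Wdr36, Wdr12 and Ddx18, each of which passed in just 1 of the 6 repeats (largest adjusted p 0.0776 for Ddx18, 0.0858 for Ncl, 0.0928 for Wdr36, 0.0999 for Wdr12, 0.103 for Rrp12 and 0.141 for Tcof1), and Nop16, whose adjusted p was 0.0521 without DMSO replicate 1.

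**Figure D3:**
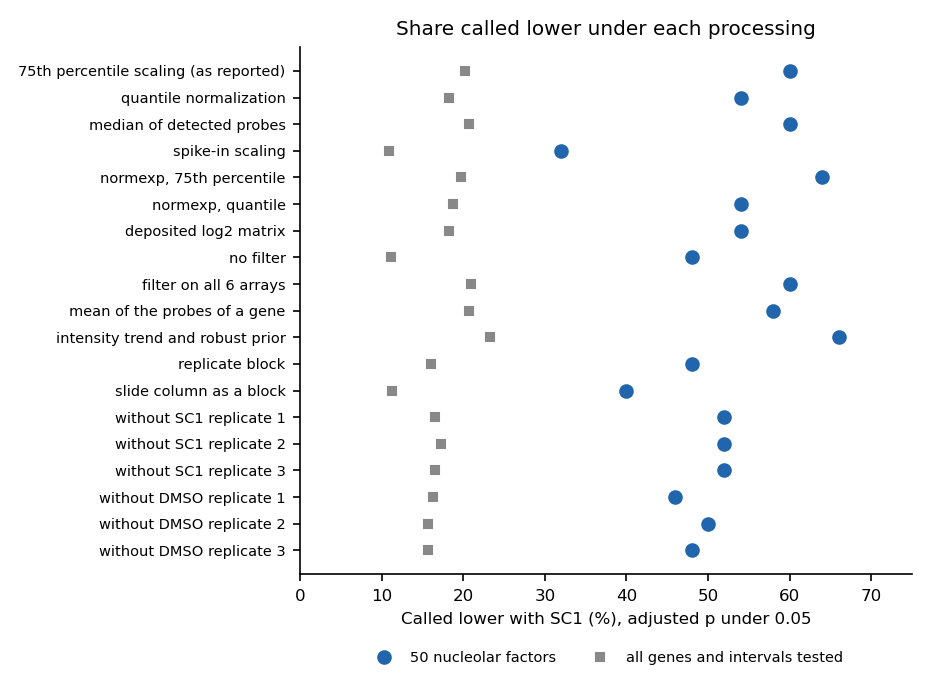
Share called lower with SC1, in percent (horizontal axis), among the 50 factors (circles) and among all genes and intervals tested (squares), under each processing (rows). The factors lie at 32.0% to 66.0% and all genes and intervals at 10.9% to 23.3%, and in every row the circle is to the right of the square.

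The stretches just upstream of the start of 6 factors are printed to show what lies before genes that fell most (Wdr43, Nop2), genes of both kinds of snoRNP (Nop58, Nhp2), a gene whose probes disagreed (Ncl) and 1 of the 2 genes that rose (Polr1b). Each is the 120 bases before the annotated start in RefSeq (GRCm38.p6), written 5′ to 3′ on the strand of the gene: chr17:71616095-71616214 (plus strand), chr6:125131763-125131882 (plus), chr1:59684886-59685005 (plus), chr11:51619653-51619772 (plus), chr1:86359456-86359575 (minus) and chr2:129100876-129100995 (plus). Capitals mark CACGTG, the E-box that MYC with its partner MAX is known to bind, and CCGGAAG, a core that many ETS transcription factors recognise, searched on both strands.
Wdr43: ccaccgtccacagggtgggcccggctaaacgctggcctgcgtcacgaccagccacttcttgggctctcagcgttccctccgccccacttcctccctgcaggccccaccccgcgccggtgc
Nop2: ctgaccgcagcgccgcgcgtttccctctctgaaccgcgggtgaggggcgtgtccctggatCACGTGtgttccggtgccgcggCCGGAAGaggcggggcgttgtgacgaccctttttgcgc
Nop58: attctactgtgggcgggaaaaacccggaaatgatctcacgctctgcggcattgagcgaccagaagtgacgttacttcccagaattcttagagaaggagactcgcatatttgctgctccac
Nhp2: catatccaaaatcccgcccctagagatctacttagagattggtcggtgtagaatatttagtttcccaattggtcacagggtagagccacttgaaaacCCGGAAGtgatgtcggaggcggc
Ncl: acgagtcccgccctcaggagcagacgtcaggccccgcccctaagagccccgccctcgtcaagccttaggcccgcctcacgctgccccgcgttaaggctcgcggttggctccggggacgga
Polr1b: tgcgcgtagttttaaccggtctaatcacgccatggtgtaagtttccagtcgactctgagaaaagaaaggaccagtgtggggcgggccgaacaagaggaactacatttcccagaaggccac
In these stretches only Nop2 held an E-box, followed by a CCGGAAG, and only Nhp2 of the others held a CCGGAAG. A match is a run of letters, not a bound site, and no match says only that the letters are not in this window.

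RefSeq start regions, from 250 bases before to 50 after a start, were at hand for 43 of the 50 factors (47 regions). The E-box CACGTG was present in 6 of the 47 (12.8%), against 7.84% of the regions of protein-coding genes and 7.15% of all 32851 regions. Those regions include genes that were not tested. Counted by gene among those tested, 14.0% of the factors and 11.1% of protein-coding genes held it. The 6 genes were Mybbp1a, Nop2, Pes1, Pno1, Utp20 and Wdr43 (there just after the start, beyond the stretch printed). Of these, 2 were lower, and their median log2 fold change was -0.09, while 23 of the 37 factors without the E-box were lower, with a median of -0.31. Among all protein-coding genes 27.5% of those with the E-box and 23.3% of those without were lower, the opposite order. CCGGAAG, which was picked with the fold changes known, was present in 13 of the 47 (27.7%), against 11.6% of the regions of protein-coding genes. Of the 12 factors with it 9 were lower (median -0.43), as were 16 of the 31 without it (median -0.21). Among the protein-coding genes tested, 2076 held CCGGAAG and 9952 did not, so it was more common among them than in 11.6% of regions. Of those with it 29.1% were lower, and of those without it 22.7%. The regions of the factors had a median GC content of 58.3% and a median of 21 CpG pairs, against 56.3% and 13 for protein-coding genes, and both motifs hold a CpG.

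Among the 4 factors of RNA polymerase I and rDNA transcription, 1 was lower, 1 was higher and 2 did not pass, with a median log2 fold change of 0.03. Counts by role and by list, here and below, stand beside 20.2% of all genes and intervals lower and 18.1% higher. For these 4 factors, 1 in each direction is near those shares. Polr1b, the second-largest subunit of the enzyme, had signals of 2300, 2181 and 2247 with SC1, against 2039, 2029 and 2052 with DMSO. Polr1a, the largest subunit, had 4173, 4363 and 4324 with SC1, against 4051, 3936 and 3803 with DMSO. For both subunits every SC1 array was above every DMSO array, as it was for 24.6% of all genes and intervals. The difference was 1.1-fold for Polr1b and 1.09-fold for Polr1a. Polr1b was higher (log2 fold change 0.14, SE 0.0399, adjusted p = 0.0399), and Polr1a stood at 0.13 (SE 0.0445, adjusted p = 0.0716, 95% interval 0.02 to 0.23). The call of Polr1b was lost without SC1 replicate 1 or 3 or any 1 of the DMSO arrays (adjusted p 0.0934 to 0.117). It held under 7 of the 18 alternatives, and was also lost, for example, with scaling to the median of detected probes (adjusted p = 0.0524) and with spike-in scaling (adjusted p = 0.779). Polr1a passed under 4 of the 18, among them quantile normalization (adjusted p = 0.0179). Tcof1, which encodes treacle, a scaffold of rDNA transcription, had 26258, 25341 and 27618 with SC1, against 28858, 30543 and 29131 with DMSO. Its arrays did not overlap, and its log2 fold change, -0.16, was at the threshold (SE 0.0505, adjusted p = 0.0498). It passed without SC1 replicate 3 (adjusted p = 0.0477) and missed the threshold without any other array (adjusted p 0.0817 to 0.141). With quantile normalization its value was -0.06 (adjusted p = 0.337), and with the deposited matrix also -0.06 (adjusted p = 0.308). Mybbp1a, a nucleolar protein that acts on rRNA synthesis and processing, stood at -0.07 (adjusted p = 0.261) with overlapping arrays.

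Of the 6 nucleolar chaperones and other nucleolar factors, 4 were lower, 1 was higher and 1 did not pass, with a median log2 fold change of -0.46. Nolc1, a chaperone of snoRNPs, had signals of 14949, 15347 and 15099 with SC1, against 21796, 21016 and 21608 with DMSO. Gnl3, the GTP-binding protein nucleostemin known from stem cells, had 5828, 5628 and 5876 with SC1, against 8700, 8813 and 7266 with DMSO. In both genes these groups were well apart, with 1.42-fold lower signal in each. The log2 fold change was -0.50 for Nolc1 (SE 0.0388, adjusted p = 0.000284) and -0.51 for Gnl3 (SE 0.0831, adjusted p = 0.00491). A dimmer Nolc1 probe gave a smaller fall, -0.26 (adjusted p = 0.0111 over probes), and the mean of its probes gave -0.38. With the slide column as a block Gnl3 just missed the threshold, at -0.50 (adjusted p = 0.0523). Ddx21, an RNA helicase that acts in rDNA transcription and rRNA processing, fell by 0.41 on the log2 scale (adjusted p = 0.00146).

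Ncl encodes nucleolin, an abundant protein that binds rDNA and nascent rRNA. Its brighter probe had signals of 48910, 67959 and 51207 with SC1, against 89048, 78105 and 74286 with DMSO. SC1 replicate 2 lay closer to the DMSO arrays than the other SC1 arrays did, and the groups did not overlap. The log2 fold change was -0.53 (SE 0.142, adjusted p = 0.0288), and -0.68 without SC1 replicate 2 (adjusted p = 0.0059). Without any 1 of the other 5 arrays the call was lost (adjusted p 0.0513 to 0.0858). The second probe of Ncl did not show the difference, with 1788, 2068 and 1928 for SC1, against 2048, 1726 and 1907 for DMSO (log2 fold change 0.03, adjusted p = 0.837 over probes). The mean of the 2 probes gave -0.25 (adjusted p = 0.113). The nucleolin result thus rests on 1 probe.

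Npm1 encodes nucleophosmin, a chaperone of histones and ribosomal proteins. It had 176900, 182546 and 194662 with SC1, against 193258, 206785 and 203689 with DMSO. The groups overlapped at SC1 replicate 3, and the log2 fold change of -0.12 did not pass (SE 0.0543, adjusted p = 0.125, 95% interval -0.26 to 0.01). Its 5 probes gave values from -0.14 to -0.04. With quantile normalization Npm1 passed at -0.13 (adjusted p = 0.0317). Lyar, a zinc-finger nucleolar protein gene expressed in embryonic stem cells, went the other way, with 73.92, 69.39 and 68.51 for SC1, against 55.35, 61.69 and 58.72 for DMSO. The groups did not overlap, and Lyar was higher by 0.27 (SE 0.0582, adjusted p = 0.0141). Its only probe was the dimmest among those of the 50 factors, though above background on all 6 arrays. When the limma variance was let follow intensity, with a robust prior, the SE of Lyar was 0.105 (adjusted p = 0.0459). With spike-in scaling its value was 0.23 (adjusted p = 0.36), and with normexp background correction and quantile normalization it was 0.11 (adjusted p = 0.0698).

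In the box C/D snoRNP group 2 of 4 factors were lower (median -0.24). Nop58, a core protein of these particles, had 14690, 15170 and 15242 with SC1, against 21275, 18845 and 19686 with DMSO. Nop56, its partner in the core, had 40579, 40993 and 41936 with SC1, against 51912, 54467 and 51354 with DMSO. Neither gene had overlapping arrays. The log2 fold change was -0.41 for Nop58 (SE 0.0565, adjusted p = 0.00272) and -0.35 for Nop56 (SE 0.0429, adjusted p = 0.00163). A second Nop56 probe gave -0.53. Fbl, the methyltransferase fibrillarin of the same particle, had 8919, 8929 and 9227 with SC1, against 8606, 8894 and 9219 with DMSO. Its groups overlapped, and its log2 fold change was 0.02 (SE 0.0445, adjusted p = 0.767, 95% interval -0.09 to 0.13). That interval leaves out a fall of the size estimated for Nop58 or Nop56, although the difference between the genes was not tested. Rrp9, a protein of the U3 particle, stood at -0.13 (adjusted p = 0.0589) with SC1 arrays below DMSO arrays.

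The box H/ACA snoRNP group had 3 of 4 factors lower (median -0.42). Nhp2 had 46826, 46399 and 48343 with SC1, against 66231, 67629 and 60153 with DMSO. Gar1 had 16137, 17311 and 15720 with SC1, against 23261, 22388 and 20751 with DMSO. Nop10 had 17107, 16753 and 17222 with SC1, against 21846, 23082 and 23069 with DMSO. These 3 small core proteins fell by close amounts, with no overlap between groups. The log2 fold changes were -0.45 for Nhp2 (SE 0.0573, adjusted p = 0.00188), -0.43 for Gar1 (SE 0.0631, adjusted p = 0.00322) and -0.41 for Nop10 (SE 0.0426, adjusted p = 0.000876). Each was called under all 18 alternatives. Dkc1, the pseudouridine synthase dyskerin that these proteins bind, stood at 0.05 (SE 0.0553, adjusted p = 0.545, 95% interval -0.09 to 0.18), with 3367, 3113 and 3336 for SC1, against 3223, 3004 and 3270 for DMSO. The signals of the catalytic subunits Fbl and Dkc1 thus overlapped between groups, while 5 of the 6 other snoRNP proteins listed were lower.

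Of the 15 small-subunit factors 8 were lower and none higher, with a median of -0.19. Wdr43, a WD-repeat protein of the early complex that loads on nascent precursor (Utp5 in yeast), had 4587, 4458 and 4603 with SC1, against 6961, 7302 and 7133 with DMSO. The arrays within each group were close and the groups far apart, and this was the largest fall among the 50 factors, 1.57-fold (log2 fold change -0.65, SE 0.0408, adjusted p = 0.000144). A second probe of Wdr43 gave -0.43 (adjusted p = 0.00232 over probes). Its start region is among those printed above. Ddx10, an RNA helicase, had 1373, 1250 and 1572 with SC1, against 1895, 2002 and 1902 with DMSO. The SC1 arrays spread more than the DMSO arrays without reaching them, and the log2 fold change was -0.47 (SE 0.0887, adjusted p = 0.00838; with the slide column as a block adjusted p = 0.063).

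Bysl, which binds late precursors of the small subunit, had 10019, 9423 and 9825 with SC1, against 12890, 12153 and 13099 with DMSO. Wdr3, the counterpart of yeast Utp12, had 3321, 3044 and 3309 with SC1, against 4151, 4092 and 4264 with DMSO. Both were lower without overlap, by -0.38 for Bysl (SE 0.0493, adjusted p = 0.00204) and -0.37 for Wdr3 (SE 0.0508, adjusted p = 0.00254). The other small-subunit factors that passed were Nat10, an RNA acetyltransferase (-0.34), Wdr75 (-0.31), Rrp12, an export factor in yeast (-0.22), and Wdr36 (-0.19). Of these, Wdr75 belongs with Wdr43 to the early complex and Wdr36 with Wdr3 to a second one. In that early complex Utp15 (-0.15) and Heatr1 (-0.11) did not pass. Neither did Noc4l and Pno1 (both -0.11), Nop14 (-0.07), Utp20 (-0.01) or Nob1, the nuclease that makes the final cut of the small-subunit rRNA (0.02). For Utp20 the sign changed under 7 of the 18 alternatives and for Nob1 under 3.

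The 17 large-subunit factors had 12 lower and none higher, with a median of -0.22. Nop2, an rRNA methyltransferase long known as a proliferation antigen, had 19437, 18306 and 18698 with SC1, against 28437, 27001 and 30491 with DMSO. Nip7, an early assembly factor, had 16222, 14348 and 17167 with SC1, against 22462, 24484 and 24863 with DMSO. Rrs1, which helps to bring in the 5S particle, had 3005, 3046 and 3117 with SC1, against 4538, 4435 and 4588 with DMSO. In all 3 the SC1 signal was 0.657 to 0.676 of the DMSO signal, and the groups were far apart. The fall was 1.52-fold for Nop2 (log2 fold change -0.61, SE 0.0584, adjusted p = 0.000678), 1.51-fold for Nip7 (-0.59, SE 0.081, adjusted p = 0.00254) and 1.48-fold for Rrs1 (-0.56, SE 0.0394, adjusted p = 0.000204). A dimmer probe of Nip7 gave -0.22 (adjusted p = 0.0366 over probes), so the size of its fall differed between probes. Ppan, a nucleolar protein of early large-subunit precursors, had 18725, 19241 and 19633 with SC1, against 25875, 26315 and 24767 with DMSO. It was 1.34-fold lower without overlap (log2 fold change -0.42, SE 0.0444, adjusted p = 0.000968).

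The smaller falls in the large-subunit group were those of Rrp1b (-0.39), Wdr74 (-0.34), Ftsj3, an rRNA methyltransferase (-0.33), Gtpbp4, a GTPase (-0.30), Nop16 (-0.22), Bop1 and Wdr12 (both -0.21) and the helicase Ddx18 (-0.16). Bop1 and Wdr12 form a complex with Pes1, and Pes1 was not called at -0.06 (adjusted p = 0.311, 95% interval -0.16 to 0.04). The probes of Pes1 disagreed: a dimmer one gave -0.35 (adjusted p = 0.022 over probes), with 636.6, 775.3 and 709.9 for SC1, against 883.6, 943.8 and 865.0 for DMSO. The helicase Ddx56 (-0.21, adjusted p = 0.0637), Noc2l (-0.10) and Mrto4, a relative of the stalk protein P0 (-0.06), had SC1 arrays below the DMSO arrays and did not pass. Noc3l stood at 0.19 (adjusted p = 0.268). Its SC1 arrays agreed at 1028, 1008 and 1017, against 733.7, 938.4 and 1021 for DMSO, so its difference came with a wide spread of the DMSO arrays.

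**Figure D4:**
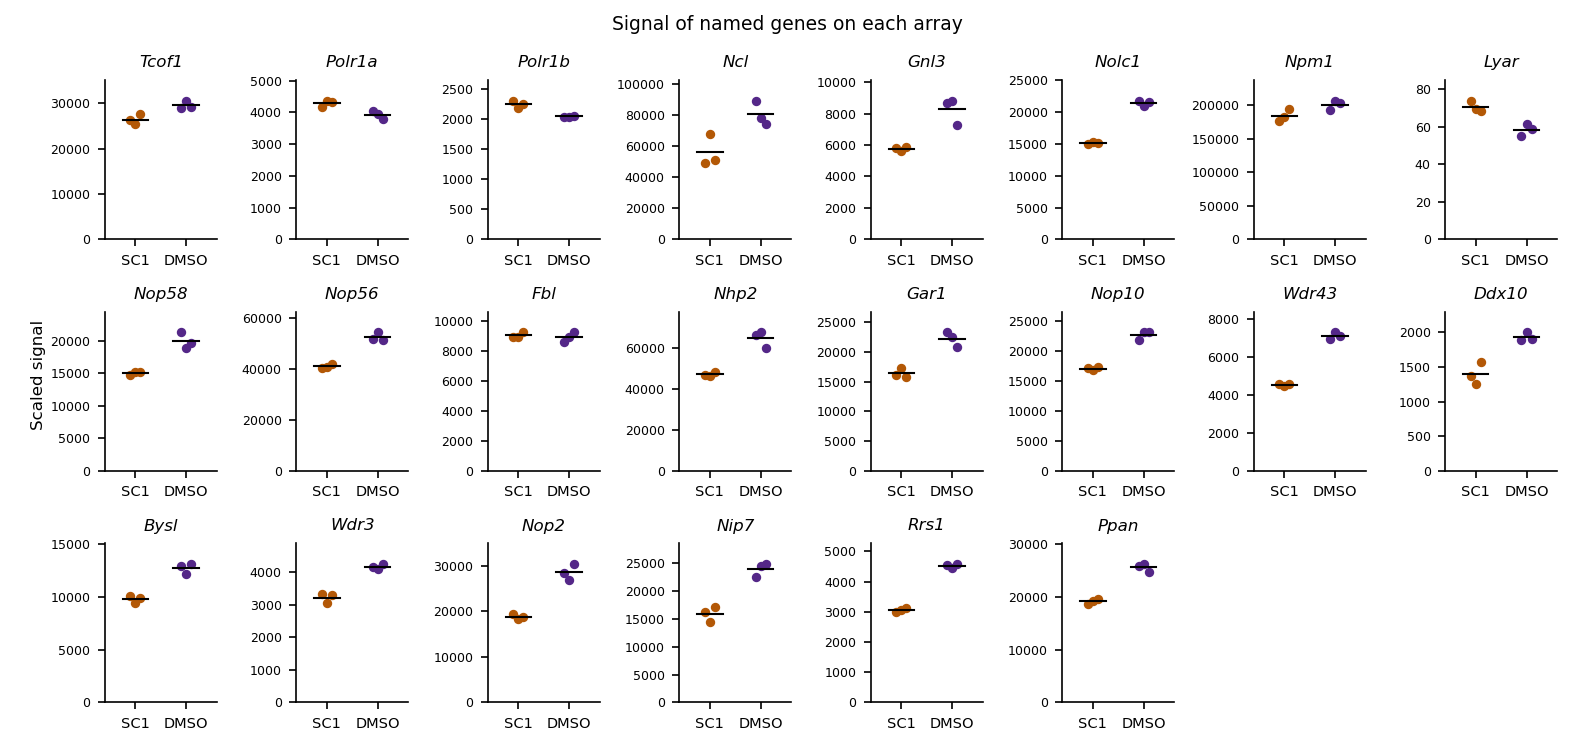
Scaled signal (vertical axes, linear, starting at 0) of 22 of the factors on each SC1 array (left, orange) and DMSO array (right, purple), with the group mean as a line. The groups are apart for Wdr43, Nop2, Rrs1, Nolc1 and Nop10, overlap for Fbl and Npm1, and SC1 is above DMSO for Polr1a, Polr1b and Lyar.

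The rest of the pathway was read from lists of other ribosome biogenesis genes that shared no member with the 50. Of 110 such genes tested (112 listed in 5 lists), 65 were lower and 2 higher, with a median log2 fold change of -0.23, against the 20.2% lower and 18.1% higher among all genes and intervals. With spike-in scaling 17 of the 110 were lower, with 10.9% of all genes and intervals lower, so most of the excess of calls was not seen under that scaling. No median of the 110 was computed under it. For the 50 factors the median under it was -0.26, and the SE of Nop56, for example, was 0.153, against 0.0429 as reported. Among 12 further RNA polymerase I subunits and factors tested, 8 were lower and none higher (median -0.23). They included Rrn3, the initiation factor that couples polymerase I to its promoter (-0.68, adjusted p = 0.000177), and 2 polymerase I subunit genes under their older symbols, Cd3eap (-0.51, now Polr1g) and Twistnb (-0.40, now Polr1f). Rrn3 had 7273, 7388 and 7827 with SC1, against 11925, 11882 and 12287 with DMSO. Polymerase I genes thus held values on both sides of 0, from Rrn3 to Polr1b.

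The list of the 40S branch had 22 of 40 lower and 1 higher (median -0.20). Tsr1 and Utp3 (both -0.44) and Utp11 (-0.36) had the smallest p among the falls, and Dhx37, a helicase that works with the U3 particle, was higher at 0.39 (adjusted p = 0.000958). In the 60S branch 25 of 39 were lower and 1 higher (median -0.28), with Nifk (-0.54), Tex10 (-0.42) and Cebpz (-0.37) lowest in p and Sbds, a late maturation factor, higher at 0.21 (adjusted p = 0.013). Of 7 snoRNP assembly genes 4 were lower (median -0.16). One of them, Naf1, the assembly factor that Gar1 replaces on box H/ACA particles, fell more than any of the 50 factors: its signals were 4601, 4804 and 4836 with SC1, against 8809, 9310 and 8957 with DMSO (log2 fold change -0.93, SE 0.0443, adjusted p = 5.76e-05). Shq1, a chaperone of dyskerin, was lower at -0.29 and Snu13, which binds the box C/D RNA, at -0.21. The RNA exosome, which trims rRNA precursors, had 6 of 12 lower and none higher (median -0.21), among them Exosc3 (-0.49), Exosc4 (-0.37) and Exosc6 (-0.30). RNA polymerase III, which makes 5S rRNA and transfer RNA, had 5 of 10 subunits lower and 1 higher (median -0.13). Polr3d (-0.49) and Polr3g (-0.39) were among those lower, and Polr3c was higher (0.33, adjusted p = 0.00565).

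Genes of the cytosolic ribosomal proteins, the cargo of these factors, had a median log2 fold change of 0.00. Of 88 tested, 5 were lower, none was higher and 83 did not pass. The 5 were Rpl39l (-0.36), Rpl3l (-0.34), Rpl7l1 (-0.31), Rps19bp1 and Rpl36al. Their symbols follow the pattern of ribosomal protein genes, but 4 of them are paralogs of the standard genes and Rps19bp1 is a binding partner. The share lower was thus below the 20.2% of all genes and intervals, and the difference between the 2 kinds of gene was not tested. The ribosomal protein probes were also far brighter. Their median signal was 207462 with SC1 and 198577 with DMSO, against 5711 and 6888 for the 50 factors. Whether fold changes are compressed at such signals was not tested. Myc, whose product activates ribosome biogenesis genes, had 44.89, 46.4 and 44.38 with SC1, against 1145, 1016 and 1022 with DMSO (adjusted p = 2.45e-06). Whether the fall of Myc had a part in the values of the 50 factors was not tested.

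**Figure D5:**
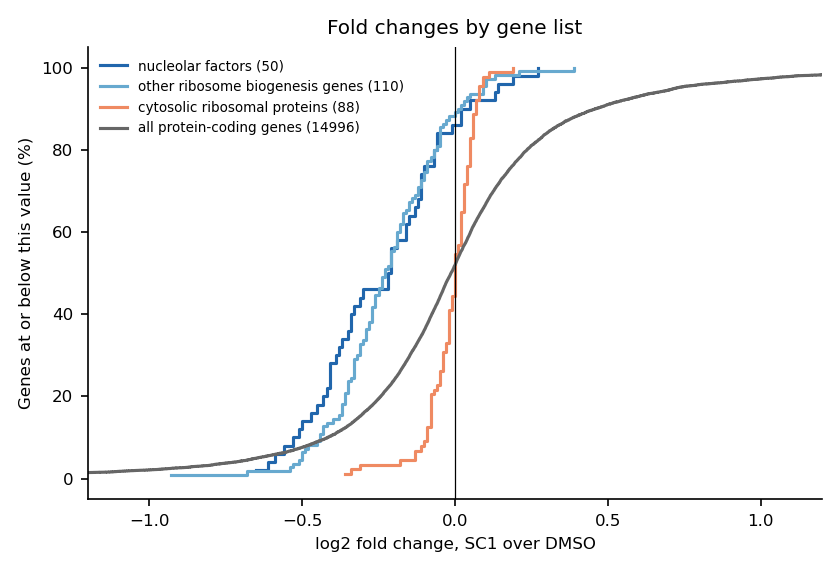
Cumulative share of genes, in percent (vertical axis), at or below each log2 fold change, SC1 over DMSO (horizontal axis, cut at the ends), for the 50 factors, 110 other ribosome biogenesis genes, 88 cytosolic ribosomal protein genes and 14996 protein-coding genes. The first 2 curves lie to the left, with medians of -0.22 and -0.23, while the ribosomal protein genes rise steeply around 0.00.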

How the data were processed

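Total RNA of 3 SC1 and 3 DMSO samples was measured on 6 single-colour arrays, grouped by their labels. Per the submitters' processing notes, spots were read with Agilent Feature Extraction 10.7. The authors deposited, per array, a background-corrected intensity for each spot with its median and background intensity. Per the file headers, other columns hold 0 or 1 flags (well above background, outlying, saturated). A deposited matrix of log2 values, whose making is not given in the sources used here, served as an alternative.

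Outlier spots (137 to 201 an array) were left out, log2 signals of spots sharing a probe were averaged, and every array was centred on its 75th percentile. Probes well above background on all 3 arrays of a group were kept (35321), each gene was represented by its brightest probe, and symbols came from RefSeq by accession. The groups were compared in R 4.3.3 by limma 3.58.1 (lmFit, eBayes, two-sided, Benjamini-Hochberg over 25439 genes and intervals, threshold 0.05). On simulated data with 25416 genes, the fit recovered 11 of 50 genes with a 1.25-fold change, 31 of 50 with a 1.5-fold and 40 of 50 with a 2-fold change. Few genes changed in that simulation (50 at each fold), against 9751 called here. Its adjusted p threshold was therefore stricter, and these rates do not carry over to the real arrays. Array values are given for the 3 or 4 factors of each role with the largest change among those that passed, for those that rose, and for Polr1a, Polr1b, Ncl, Npm1 and Fbl; Dkc1, Noc3l and second probes were added after their values were seen. From each other list up to 3 genes a direction with the smallest p are named; 1 that the rule names is not reported here. The members, lists, motifs and tests were chosen with earlier results of these data known. Figures used Python 3.11.15 and matplotlib 3.10.9.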

Additional observations from a re-analysis of the deposited data

How the results depend on the processing

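The count of lower factors (30) stayed between 20 and 33 under all alternatives that give 1 value a gene but spike-in scaling, which gave 16, with 0 higher and a median of -0.26. That scaling rests on 8 probes, and it set SC1 replicate 2 apart from the other SC1 arrays (log2 offset 0.099, against -0.129 and -0.216). It left 5068 genes changed in all (9751 as reported) and, among the other ribosome biogenesis genes, 17 lower and 0 higher (65 and 2 as reported). Of all genes and intervals 10.9% were lower under it. The median of the factors was -0.18 with quantile normalization, with normexp and quantile normalization and with the deposited matrix, each of which called 4 of the other biogenesis genes higher. The slide column as a block gave 5545 changed genes, 1 factor higher and, of the other genes, 40 lower and 1 higher. With every probe tested, 36 of the 64 probes were lower and 2 higher. A threshold of 0.01 left 5792 of 25439 genes and intervals changed in either direction, with 23 factors lower and 0 higher. For that threshold and for single probes, the share of all features lower was not computed. Just 1 factor was higher with scaling to the median of detected probes, with normexp at the 75th percentile and with no filter. Leaving out each array gave 23 to 26 factors lower (46.0% to 52.0%, against 15.7% to 17.3% of all genes and intervals) and 1 to 2 higher. It also gave 7783 to 8446 changed genes and medians from -0.23 to -0.21. The cause of these differences was not tested.

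The replicate numbers did not pair the arrays: same-numbered arrays had correlations of -0.013, -0.036 and -0.015 between their deviations from the group means. With the replicate block 24 factors were lower (48.0%, against 16.0% of all genes and intervals) and 0 higher. Under that block 1 other biogenesis gene was higher, and 7910 genes changed. For the 22 factors with array values, 343 of 396 combinations with the 18 alternatives kept sign and call, 43 lost the call and 7 gained it. The sign turned in 3, none of them called: Fbl at -0.02 with spike-in scaling and at -0.00 without DMSO replicate 1 (up to 0.04 without another array), and Npm1 at 0.02 with normexp and quantile normalization. The number of arrays, the small size of most shifts and probes that differ in size or direction (Ncl, Pes1, Nip7, Nolc1) limit what can be said of single factors.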
